A study of Mus musculus with 8 samples.

Results

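In all, 31 genes of amino acid metabolism were followed in epithelial cells of mouse gastric tumors with and without Yap1, the gene of the transcriptional coactivator YAP. The genes encode enzymes that move amino groups between alanine, aspartate and glutamate, make or break down asparagine, glutamine, serine, glycine and cysteine, start the breakdown of branched-chain amino acids, and run parts of the urea cycle and of purine and pyrimidine synthesis. They were chosen by gene symbol from a count table of 27179 entries. All 31 were found, and 29 of them, with 13495 genes in all, passed a filter on low counts, above 0.5 counts per 1e6 counts of the library (CPM) in at least 6 of 8 libraries.

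The tumors were antral gastric tumors of gp130FF mice, which carry a mutated gp130 cytokine receptor and develop such tumors spontaneously. Cells with EpCAM, a surface protein of epithelia, were isolated from them on a flow cytometer, and 1 RNA-seq library was made from each of 8 mice labelled as 18 weeks old and sampled 3 days after tamoxifen. All 8 mice share the gp130FF mutation. The labels describe the 4 Yap1WT mice as gp130FF; Yap1WT and the 4 Yap1KO mice as gp130FF;Yap1 flox/flox, and name tamoxifen for both groups. By the study's methods, both groups instead had the same genotype, Gp130FF; Tff1:CreERT2; Yap1 fl/fl, with a tamoxifen-activated Cre under the Tff1 promoter, and Yap1WT mice were given vehicle and Yap1KO mice tamoxifen. The genotype and injection of the Yap1WT mice are thus not settled by the sources. The Tff1 promoter is best known from surface (foveolar) cells of the stomach, and the study infers from Tff1 expression in these tumors that the deletion also reached parietal, chief, mucous neck, tuft, neuroendocrine and tumor epithelial cells. Which EpCAM+ cells kept the gene was not tested here.

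Aminotransferases carry the amino group of one amino acid to a keto acid, most often with glutamate as the partner, and so link amino acids to the intermediates of glycolysis and of the citric acid cycle. Several of the genes exist as pairs, with one enzyme in the cytosol and the other in mitochondria, or with one form in most tissues and the other in muscle. When amino acids are scarce, the transcription factor ATF4 raises a set of genes for their synthesis and transport, of which Asns is a well known member.

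Upstream sequences of 4 of the genes are shown because they bear on how the genes differ in regulatory sequence. RefSeq promoter sequences on GRCm38.p6 were at hand for 23 of the 31 genes. The first pair is the 250 bases before the start of Aspa (chr11:73324638-73324887, minus strand, within an intron of longer Aspa transcripts) and of Adssl1 (chr12:112619797-112620046, plus strand, next to the first exon). Aspa fell and Adssl1 rose by the largest factors among the called genes of the 31. Both are written 5′ to 3′ with each CpG in capitals.
Aspa: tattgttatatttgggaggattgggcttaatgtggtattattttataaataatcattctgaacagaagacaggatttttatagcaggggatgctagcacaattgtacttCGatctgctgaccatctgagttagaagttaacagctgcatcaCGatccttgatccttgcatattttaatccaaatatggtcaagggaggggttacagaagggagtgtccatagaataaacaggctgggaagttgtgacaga
Adssl1: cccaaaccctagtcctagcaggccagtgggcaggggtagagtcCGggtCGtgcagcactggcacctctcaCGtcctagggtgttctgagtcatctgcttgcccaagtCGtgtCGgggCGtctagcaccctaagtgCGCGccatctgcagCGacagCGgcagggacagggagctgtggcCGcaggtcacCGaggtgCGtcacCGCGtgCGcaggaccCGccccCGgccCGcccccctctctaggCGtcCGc
The Aspa window holds 2 CpG and is 38.8% G and C. The Adssl1 window holds 21 CpG and is 68.4% G and C. Among the promoters of the tested genes, the CpG count of Aspa stood at percentile 5.93 and that of Adssl1 at percentile 70.9. The median was 16 CpG over the promoters of the 31 genes and 15 over those of all tested genes.

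The second pair holds the only matches to TGATGNAA, the core of the amino acid response element that ATF4 binds, searched on both strands (TTNCATCA in reverse) of 300-base windows that also take in 50 bases after the start. The match is in capitals. The Asns window is chr6:7693214-7693243 and the Got1 window chr19:43524689-43524718, both for genes on the minus strand.
Asns: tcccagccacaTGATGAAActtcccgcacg
Got1: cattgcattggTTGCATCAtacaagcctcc
The motif stood in 2 of 25 promoters of these genes (some have more than 1 promoter) and in 3.97% of all 32851 promoters. GGAATG, the motif of the TEAD factors through which YAP acts (CATTCC in reverse), stood in 1 of the 25, that of Oat at 221 to 216 bases before its start, and in 14.7% of all. The promoters of Aspa, Bcat2, Gpt2, Adss and Adssl1 held neither, which says only that these letters are not in these windows.

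Yap1 was checked first. It had 77.1, 64.2, 78.0 and 72.5 CPM in Yap1WT 1 to 4 and 21.3, 27.6, 29.7 and 24.2 CPM in Yap1KO 1 to 4, a log2 fold change of -1.51 (SE 0.13, adjusted p = 0.000208) in edgeR's quasi-likelihood test with Benjamini-Hochberg adjustment over all tested genes, which gave every adjusted p below unless another test is named. Each library matched its label. Library totals ran from 18229945 to 77483047 counts. Yap1KO 4 was the shallowest and lay far from the rest of its group in a principal component analysis (66.8 on the first axis, where the others were at -6.37 to 1.34), and was the only Yap1KO library from a female by its Xist and Ddx3y counts. The summed level of 7 epithelial markers was 10154 to 12248 CPM across Yap1WT libraries and 9526 to 11981 CPM across Yap1KO libraries. Epcam, the gene of the sorted protein, was itself higher in Yap1KO (log2 fold change 0.76, adjusted p = 0.00188). Markers of cell types within and beside the epithelium were not level between the groups. Foveolar markers (led by Gkn1 and Gkn2) had a median log2 fold change of -0.81 over 8 genes and summed to 33383 to 66022 CPM across Yap1WT libraries and 24846 to 41065 CPM across Yap1KO libraries. Mucous neck markers (led by Tff2 and Muc6) had a median of 1.14 over 5 genes, and endothelial markers (led by Plvap and Pecam1) summed to 154 to 529.9 CPM across Yap1WT libraries and 501 to 984 CPM across Yap1KO libraries. Fibroblast markers (led by Col3a1 and Col1a1) summed to 83.8 to 693 CPM across Yap1WT libraries and 313 to 1051 CPM across Yap1KO libraries. Of the exocrine pancreas markers, Ctrb1, Prss2, Amy2a5, Pnlip and Cpa1 had 262, 95.8, 66.5, 36.1 and 31.5 CPM in Yap1KO 2. None of these exceeded 0.491 CPM in any other library. Cela1, also of that list, had 253 to 403 CPM across Yap1WT libraries and 451 to 595 CPM across Yap1KO libraries. The part of these marker differences in the results below was not tested.

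By the deposited length-scaled values (log2 RPKM), the 31 genes spanned a wide range of levels. Glul, the gene of glutamine synthetase, stood highest, at 7.86 ± 0.20 log2 RPKM in Yap1WT (SD, n = 4), above 98.1% of all genes listed. Oat, which encodes the mitochondrial ornithine aminotransferase, came next at 6.96 ± 0.12 log2 RPKM. Asns, Glud1, Bcat2 and Adss followed, at means over all 8 libraries of 5.998, 5.94, 5.77 and 5.73 log2 RPKM. Glul lay above Oat and Oat above Asns in every library, whereas the libraries of Asns, Glud1, Bcat2 and Adss overlapped. The lowest was Cbs, which encodes cystathionine beta-synthase, the first step of transsulfuration, at a mean of -2.39 log2 RPKM. Abat, Gls2, Ass1 and Arg2 also had means below 0, from -1.10 to -0.35 log2 RPKM. The liver form of glutaminase (Gls2) and the urea cycle gene Ass1 were thus among the weakest of the set.

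**Figure D1:**
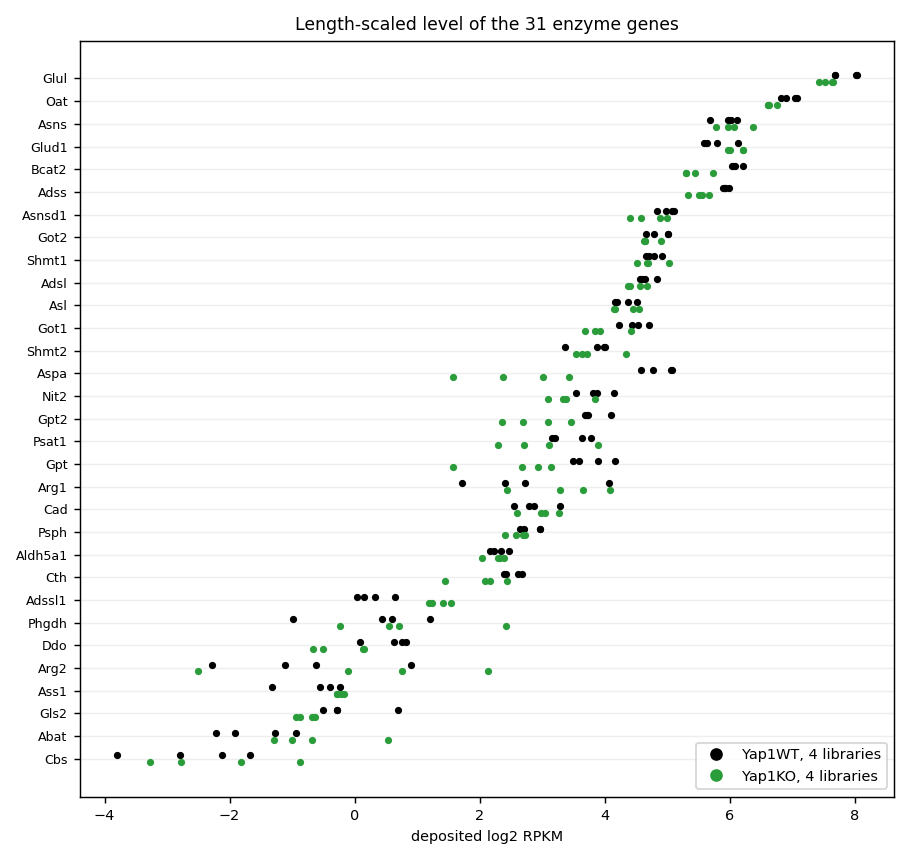
Deposited log2 RPKM (x axis) of the 31 genes (y axis, ordered by mean), with 1 point per library, black for the 4 Yap1WT and green for the 4 Yap1KO libraries. Glul stands at the top and Cbs at the bottom. The black and green points of Aspa, Bcat2, Adss, Adssl1, Gpt, Gpt2, Oat, Glul and Gls2 do not overlap, those of Glul by a narrow margin. The share of all genes whose groups do not overlap on this scale was not computed.

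Of the 29 tested genes, 4 were lower in Yap1KO (Aspa, Bcat2, Gpt2 and Adss) and 1 was higher (Adssl1), at an adjusted p under 0.05. That is 17.2% of the 29, where 5.87% of all tested genes were called, 2.34% lower and 3.53% higher. Without adjustment, 7 of the 29 had lower and 2 had higher values at p under 0.05, against 8.97% and 11.5% of all tested genes. The log2 fold change was below 0 for 19 of the 29, where 51.4% of all tested genes were below 0, and the median was -0.19 against -0.01 over all. In 6 genes every Yap1KO library was below every Yap1WT library, and in 1 every Yap1KO library was above, where 6.01% and 7.19% of all tested genes had no overlap. In bulk RNA from sorted cells, fewer cells of a type and less RNA per cell cannot be told apart, which holds for each gene below.

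**Figure D2:**
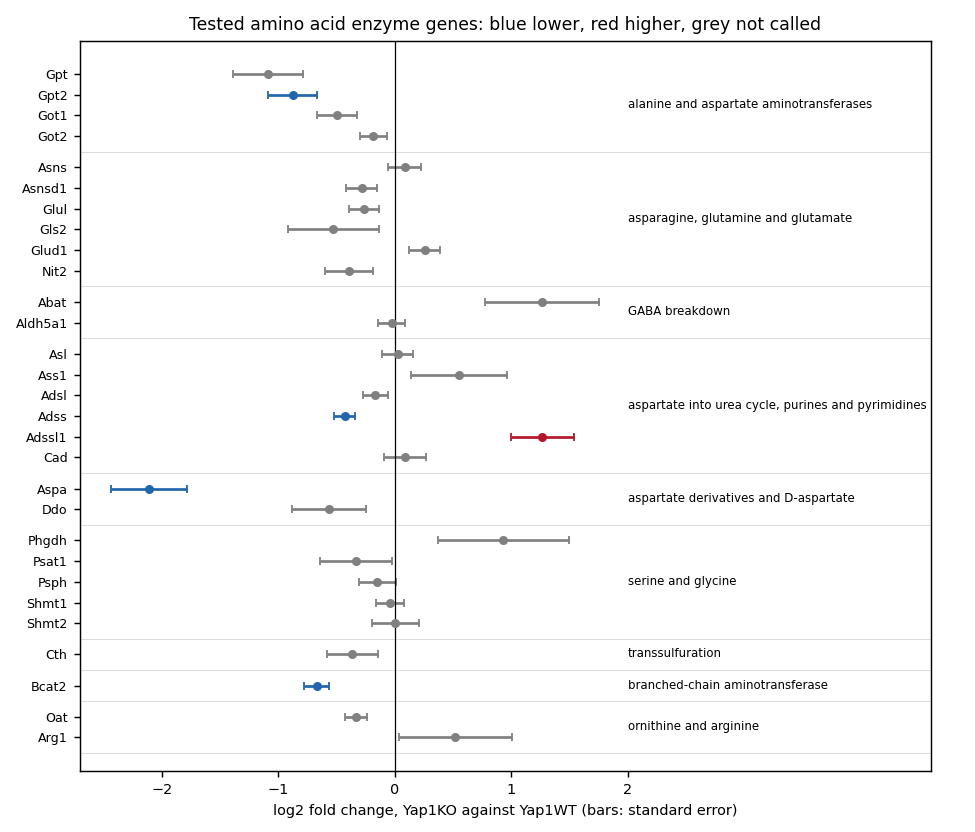
Log2 fold change of the 29 tested genes (x axis, Yap1KO against Yap1WT, points with standard error), grouped by role, blue for lower, red for higher and grey for not called. Aspa lies farthest to the left at -2.11, Adssl1 is the only red point at 1.27, and all 4 alanine and aspartate aminotransferase genes lie left of 0.

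The transaminase genes of alanine and aspartate all had log2 fold changes below 0, and 1 of the 4 was called. Gpt2 encodes the mitochondrial alanine aminotransferase, which interconverts alanine and pyruvate (chr8:85492576-85528902, GRCm38.p6). It had 46.1, 45.8, 61.9 and 47.8 CPM in Yap1WT 1 to 4 and 30.0, 23.0, 18.6 and 38.7 CPM in Yap1KO 1 to 4. No Yap1KO library reached the lowest Yap1WT library, though Yap1KO 4 came close, and the difference was 1.83-fold, a log2 fold change of -0.88 (SE 0.21, adjusted p = 0.0393). Within the male libraries the log2 ratio of the mean CPM was -1.17, and between the 2 female Yap1WT libraries and the 1 female Yap1KO library it was -0.28. The call was lost without any of 7 of the 8 libraries, all but Yap1KO 4, with adjusted p from 0.0169 to 0.131 over the 8.

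Gpt, the cytosolic alanine aminotransferase (chr15:76696726-76699675), did not pass the test. It had 25.7, 21.3, 31.2 and 19.0 CPM in Yap1WT 1 to 4 and 13.03, 15.9, 11.5 and 5.19 CPM in Yap1KO 1 to 4. The groups did not overlap and the mean was 24.3 ± 5.36 CPM in Yap1WT and 11.4 ± 4.52 CPM in Yap1KO, with a log2 fold change of -1.09 (SE 0.30, adjusted p = 0.0655). The lowest value was that of Yap1KO 4, and without that library the log2 fold change was -0.86. Gpt passed in 6 of 18 alternative settings, among them that without Yap1KO 2 (adjusted p = 0.0431), limma-voom (adjusted p = 0.0234) and DESeq2 (adjusted p = 0.00421).

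The aspartate aminotransferases interconvert aspartate and oxaloacetate and work in the malate-aspartate shuttle. The cytosolic Got1 had 37.5, 44.1, 48.2 and 53.0 CPM in Yap1WT 1 to 4 and 29.1, 30.7, 43.5 and 26.1 CPM in Yap1KO 1 to 4. Yap1KO 1, 2 and 4 lay below all Yap1WT libraries and Yap1KO 3 lay among them. Its log2 fold change was -0.49 (SE 0.17, adjusted p = 0.133), and without Yap1KO 3 it was -0.67 (adjusted p = 0.0274). The mitochondrial Got2 had 68.6 ± 8.94 CPM in Yap1WT and 60.3 ± 5.47 CPM in Yap1KO, and its libraries overlapped (log2 fold change -0.19, SE 0.12). On the deposited log2 scale, Got1 minus Got2 was -0.40 ± 0.16 in Yap1WT and -0.74 ± 0.20 in Yap1KO, and Gpt minus Gpt2 was -0.02 ± 0.19 and -0.31 ± 1.08 (SD, n = 4 each, no test).

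The gene with the largest difference was Aspa (chr11:73304987-73326876), which encodes aspartoacylase, the enzyme that splits N-acetylaspartate into acetate and aspartate and is best known from brain white matter. Aspa had 49.6, 51.1, 42.0 and 36.1 CPM in Yap1WT 1 to 4 and 7.80, 16.9, 4.98 and 12.2 CPM in Yap1KO 1 to 4. The highest Yap1KO library was far below the lowest Yap1WT library, and the groups were well apart. Aspa was 4.31-fold lower in Yap1KO, a log2 fold change of -2.11 (SE 0.33, adjusted p = 0.00448). These values rest on 1009 to 3847 counts per Yap1WT library and 224 to 536 per Yap1KO library. The log2 ratio was -2.03 among the mice of the lower number range (2 of each group) and -2.18 among those of the higher range (2 of each), and -2.23 in male and -1.81 in female libraries. Without Yap1KO 4 the log2 fold change was -2.19, and the call held in all 18 alternatives.

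Aspa overlaps the neighbouring gene Spata22 by 317 bases, and the library kit kept no strand. Spata22 had 0 to 104 counts per library. The 6 glial and neuronal markers summed to 86.8 to 105.9 CPM across Yap1WT libraries and 98.3 to 144.7 CPM across Yap1KO libraries, so the markers of the cells for which Aspa is best known did not move down with it. Ddo, the peroxisomal D-aspartate oxidase listed beside Aspa, was much weaker, at 4.21 ± 0.821 CPM in Yap1WT and 2.84 ± 0.936 CPM in Yap1KO, and its log2 fold change of -0.56 (SE 0.32) did not pass the test (adjusted p = 0.367).

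Bcat2 encodes the mitochondrial branched-chain aminotransferase, which removes the amino group of leucine, isoleucine and valine (chr7:45568967-45589710). It had 159.8, 149, 149 and 146 CPM in Yap1WT 1 to 4 and 86.7, 112, 84.3 and 96.7 CPM in Yap1KO 1 to 4. The 4 Yap1WT libraries lay close together, and the highest Yap1KO library, Yap1KO 2, stayed well below them. The log2 fold change was -0.67 (SE 0.11, adjusted p = 0.00539), which is 1.59-fold lower. It was -0.63 and -0.71 within the lower and higher mouse numbers and -0.66 in each sex (log2 ratio of the means), and the call held in all 18 alternatives. The lncRNA 0610005C13Rik overlaps 6210 bases of the gene and had 0 to 53 counts per library.

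The adenylosuccinate synthetases join aspartate to inosine monophosphate on the way to AMP, and the 2 genes moved in opposite directions. Adss (chr1:177763176-177796695), the form found in most tissues, had 157, 154, 156 and 156 CPM in Yap1WT 1 to 4 and 117, 127, 116 and 102 CPM in Yap1KO 1 to 4. The Yap1WT libraries were within a few CPM of each other, and every Yap1KO library was lower, by a log2 fold change of -0.43 (SE 0.09, adjusted p = 0.021). Adssl1 (chr12:112620047-112641355), the muscle form, had 1.92, 1.89, 1.66 and 2.54 CPM in Yap1WT 1 to 4 and 4.16, 4.74, 5.16 and 5.19 CPM in Yap1KO 1 to 4. Its level was low throughout, yet every Yap1KO library was above every Yap1WT library, and the log2 fold change was 1.27 (SE 0.27, adjusted p = 0.0232), or 2.41-fold higher.

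On the deposited log2 RPKM scale Adss exceeded Adssl1 by 5.28 to 5.89 in Yap1WT and by 3.79 to 4.44 in Yap1KO (means 5.64 ± 0.28 and 4.18 ± 0.28). Adss thus remained much the stronger gene in every library, and the gap was smaller in each Yap1KO library. Muscle markers, led by Acta2 and Myh11, summed to 21.96 to 131.9 CPM across Yap1WT libraries and 32.6 to 187 CPM across Yap1KO libraries. They were highest in Yap1KO 3 (187 CPM) and 35.7 CPM in Yap1KO 4. Acta2 and Myh11 are smooth muscle genes. The striated muscle gene Acta1 had 2.47 ± 1.37 CPM in Yap1WT and 4.73 ± 2.50 CPM in Yap1KO and was not called. Ckm, Myh1, Myh4 and Myl1, the other striated muscle genes of that list, did not pass the filter. They had at most 0.537, 0.210, 0.186 and 0.210 CPM in any library. The part of muscle cells in the Adssl1 values was not tested. Without Yap1KO 4, Adss had a log2 fold change of -0.38 (adjusted p = 0.0591) and Adssl1 one of 1.23 (adjusted p = 0.0473). The Adss call was also lost without Yap1WT 1, Yap1WT 3 or Yap1KO 1, and the Adssl1 call without Yap1WT 1, Yap1WT 2, Yap1WT 3 or Yap1KO 3, with adjusted p up to 0.0666 and 0.0847.

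**Figure D3:**
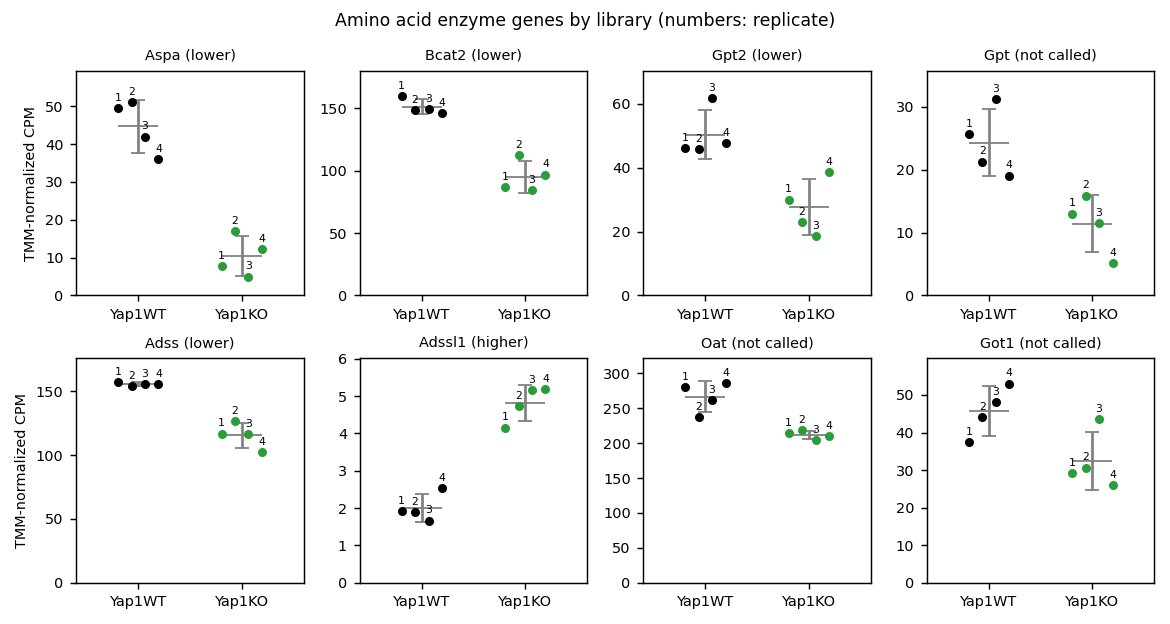
TMM-normalized CPM (y axis, from 0) of 8 genes in each Yap1WT (black) and Yap1KO (green) library, with the replicate number at each point and the mean and SD in grey. The groups do not overlap in 7 of the panels, whereas in Got1 Yap1KO 3 lies among the Yap1WT libraries.

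The other genes that draw on aspartate did not pass the test. Adsl, which encodes adenylosuccinate lyase and acts after Adss, had 52.9 ± 4.71 CPM in Yap1WT and 47.1 ± 4.81 CPM in Yap1KO (log2 fold change -0.17, SE 0.11, adjusted p = 0.433). Cad, which covers the first steps of pyrimidine synthesis, had a log2 fold change of 0.09 (SE 0.18), and Asl, the argininosuccinate lyase of the urea cycle, one of 0.02 (SE 0.13). Ass1, which makes argininosuccinate from citrulline and aspartate, was near the filter, with a range of 0.492 to 1.22 CPM among the Yap1WT libraries and of 1.20 to 1.70 CPM among the Yap1KO libraries. Its log2 fold change was 0.55 (SE 0.41).

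None of the 6 genes of asparagine, glutamine and glutamate was called. Glul had 635 ± 106 CPM in Yap1WT and 528 ± 25.3 CPM in Yap1KO, and its libraries overlapped in CPM by a small margin (log2 fold change -0.27, SE 0.13, adjusted p = 0.282). On the deposited log2 RPKM scale its groups did not overlap, at 7.68 to 8.04 in Yap1WT and 7.43 to 7.65 in Yap1KO (exact permutation p = 0.0286). The groups of Gls2, which overlapped in CPM, did not overlap on that scale either (exact permutation p = 0.0286). Any complete separation of 4 against 4 libraries gives this p, so it adds nothing to the lack of overlap. Neither Glul nor Gls2 was called in any of the 18 alternatives, among them a test on the deposited log2 values. Asns, which makes asparagine from aspartate and glutamine, had 119 ± 16.1 CPM in Yap1WT and 126 ± 21.4 CPM in Yap1KO, a log2 fold change of 0.08 with an SE of 0.14. Glud1, the glutamate dehydrogenase, had a range of 155 to 215 CPM among the Yap1WT libraries and of 187 to 234 CPM among the Yap1KO libraries and a log2 fold change of 0.26 (adjusted p = 0.323). Asnsd1, Nit2, an omega-amidase, and Gls2 had log2 fold changes of -0.28, -0.39 and -0.53 with SE of 0.13, 0.20 and 0.39. Asnsd1 shares 4424 bases with Asdurf.

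The 2 genes of GABA breakdown differed in level and in spread. Abat, the GABA transaminase, had 0.993, 1.96, 0.912 and 2.22 CPM in Yap1WT 1 to 4 and 6.66, 3.38, 2.56 and 1.80 CPM in Yap1KO 1 to 4. Yap1KO 1 was far above the rest, Yap1KO 4 lay among the Yap1WT libraries, and the log2 fold change of 1.26 (SE 0.49) had an adjusted p of 0.174. The log2 ratio was 1.77 among the lower mouse numbers and 0.48 among the higher. Aldh5a1, which completes the path to succinate, had 27.4 ± 2.31 CPM in Yap1WT and 26.9 ± 2.66 CPM in Yap1KO and a log2 fold change of -0.03 (SE 0.12).

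The serine and glycine genes showed no call and a strong influence of a single library. Phgdh, the first enzyme of serine synthesis from glycolysis, had 2.46, 1.02, 3.42 and 2.58 CPM in Yap1WT 1 to 4 and 3.16, 1.89, 10.2 and 2.68 CPM in Yap1KO 1 to 4. Yap1KO 3 was far above the other 7 libraries. The log2 fold change was 0.93 (SE 0.56, adjusted p = 0.403), and without Yap1KO 3 it was 0.12. Psat1, the next enzyme, had 21.8, 23.1, 30.8 and 33.7 CPM in Yap1WT 1 to 4 and 15.9, 12.5, 37.1 and 21.1 CPM in Yap1KO 1 to 4. Here too Yap1KO 3 was the highest of all 8, and the log2 fold change of -0.33 became -0.73 without it, with adjusted p of 0.604 and 0.113.

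Yap1KO 3 was the highest library for 5 of the 31 genes, Asns, Phgdh, Psat1, Shmt1 and Shmt2. Shmt1 and Shmt2 encode the cytosolic and mitochondrial serine hydroxymethyltransferases that make glycine and one-carbon units from serine. Their log2 fold changes were -0.04 (SE 0.12) and 0.00 (SE 0.20), and that of Psph, the last enzyme of serine synthesis, was -0.15 (SE 0.16). Yap1KO 4 was the lowest library for 12 of the 31, among them Gpt, Got1, Glul, Adss and Cth, and the highest for Adssl1 alone.

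Among the genes of ornithine and arginine, Oat had 281, 238, 262 and 286 CPM in Yap1WT 1 to 4 and 214, 219, 204 and 210.1 CPM in Yap1KO 1 to 4. The groups did not overlap, and all Yap1KO libraries were within a narrow band. The log2 fold change was -0.33 (SE 0.09, adjusted p = 0.0691), which missed the threshold. Of the 18 alternatives only 1, DESeq2, called it (adjusted p = 0.00991). Arg1, the cytosolic arginase, varied more within groups than between them, with a range of 4.58 to 24.3 CPM among the Yap1WT libraries and of 8.34 to 24.5 CPM among the Yap1KO libraries and a log2 fold change of 0.52 (SE 0.48). Macrophage markers, another source of Arg1, summed to 6.98 to 13.1 CPM across Yap1WT libraries and 7.32 to 19.0 CPM across Yap1KO libraries, and their part in the spread of Arg1 was not tested. Arg2, the mitochondrial arginase, did not pass the filter and had a range of 0.477 to 2.70 CPM among the Yap1WT libraries and of 0 to 6.21 CPM among the Yap1KO libraries.

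Cth, which encodes cystathionine gamma-lyase and makes cysteine from cystathionine, had 10.1 ± 0.706 CPM in Yap1WT and 7.78 ± 2.03 CPM in Yap1KO, with Yap1KO 4 the lowest at 4.91 CPM (log2 fold change -0.36, SE 0.22, adjusted p = 0.405). Cbs did not pass the filter, with a range of 0.396 to 0.550 CPM among the Yap1WT libraries and of 0 to 1.39 CPM among the Yap1KO libraries. Neither Cbs nor Arg2 had a count in Yap1KO 4, where 0 counts allow up to 0.163 CPM (3 counts, counting error only). With the filter at 4 libraries, Cbs and Arg2 entered the test with log2 fold changes of 0.62 (SE 0.82) and 1.25 (SE 1.05), neither called.

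The stability of the calls is shown by the adjusted p of 7 genes over the 18 alternatives, which change the test, scaling, filter or model terms or leave out 1 library. Aspa and Bcat2 stayed under 0.05 in each. Over the runs that left out 1 library their adjusted p ranged from 0.00123 to 0.019 and from 0.00174 to 0.0212. Adss and Adssl1 were called in 14 of 18, Gpt2 in 11 and Gpt in 6. Every loss for Gpt2, Adss and Adssl1 came when a library was left out.

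**Figure D4:**
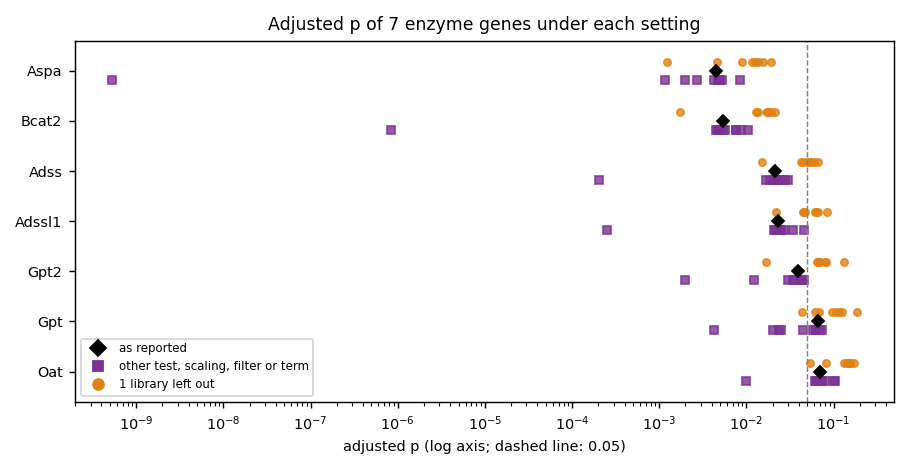
Adjusted p (x axis, log scale, dashed line at 0.05) of 7 genes under each setting, with a black diamond for the value as reported, purple squares for another test, scaling, filter or term, and orange circles for 1 library left out. All points of Aspa and Bcat2 lie left of the line, and those of Gpt2, Adss and Adssl1 that cross it are orange.

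A further 227 genes of amino acid metabolism, in 8 lists, were found in the table, and 196 of them were tested. Of these, 12 were lower and 7 higher, 9.69% in all, with a median log2 fold change of -0.03. Over all tested genes, 5.87% were called (2.34% lower and 3.53% higher), and the counts of each list below are to be read against these shares. The list with most lower genes was that of methionine, homocysteine and cysteine, in which 5 of 21 tested genes were lower, against 2.34% of all tested genes, and none was higher in edgeR at an adjusted p under 0.05. These 5 were Suox, Mpst, Ethe1, Tst and Sqor. Before adjustment, at p under 0.05, the list had 7 lower and 3 higher genes, and its median was 0.02.

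Suox, the sulfite oxidase, had 181, 266, 246 and 283 CPM in Yap1WT 1 to 4 and 106, 100.3, 71.4 and 107 CPM in Yap1KO 1 to 4. Ethe1, the persulfide dioxygenase, had 58.4, 73.4, 98.3 and 96.0 CPM in Yap1WT 1 to 4 and 26.5, 31.3, 34.0 and 41.3 CPM in Yap1KO 1 to 4. In both genes the groups were far apart. Their log2 fold changes were -1.34 (SE 0.17, adjusted p = 0.00157) and -1.29 (SE 0.19, adjusted p = 0.00313). Mpst and Tst, the paired sulfurtransferase genes, had log2 fold changes of -0.93 (adjusted p = 0.00172) and -0.96 (adjusted p = 0.00828). Sqor, the sulfide quinone oxidoreductase, had one of -0.40 (adjusted p = 0.0313). The first 4 kept their calls in all 18 alternatives, whereas Sqor kept its call in 12.

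In the branched-chain list, 21 of 22 tested genes had log2 fold changes below 0, where 51.4% of all tested genes did, with a median of -0.10, and 2 were called lower. Of these, Hibch, of valine breakdown, had 45.0 ± 2.65 CPM in Yap1WT and 32.7 ± 4.15 CPM in Yap1KO (log2 fold change -0.46, SE 0.11, adjusted p = 0.0427). It lies downstream of Bcat2 in the path and kept its call in 8 of 18 alternatives.

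In the list of glutamine, glutamate and GABA, 2 of 16 genes were lower and 1 higher. Gclc, the catalytic subunit of glutamate-cysteine ligase in glutathione synthesis, had a log2 fold change of -0.71 (adjusted p = 0.00113). Aldh4a1, which makes glutamate from the proline breakdown product, was higher, at 23.8 ± 4.21 CPM in Yap1WT and 38.5 ± 6.02 CPM in Yap1KO (log2 fold change 0.69, SE 0.16, adjusted p = 0.0298).

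The list of serine, glycine and one-carbon metabolism had 1 lower and 1 higher gene of 25. The folate enzyme gene Aldh1l1 had 66.8, 46.8, 52.5 and 54.0 CPM in Yap1WT 1 to 4 and 107, 101, 87.8 and 90.0 CPM in Yap1KO 1 to 4. Every Yap1KO library was above every Yap1WT library, and the log2 fold change of 0.81 (SE 0.12, adjusted p = 0.0043) held in all 18 alternatives. Slc25a32, the mitochondrial folate carrier, had a log2 fold change of -0.45 (adjusted p = 0.0413). Of the 23 tested genes in the list of aspartate, asparagine, purines and pyrimidines, none was called in edgeR at an adjusted p under 0.05, although 5 fell below 0.05 before adjustment with lower and 1 with higher values in Yap1KO. The most abundant of them, the malate dehydrogenase genes Mdh1 and Mdh2, had log2 fold changes of -0.01 and 0.04.

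Of the remaining lists, that of the urea cycle, arginine, proline and polyamines had 1 higher gene of 29, Smox (spermine oxidase, log2 fold change 0.89, SE 0.17, adjusted p = 0.0154). Of 33 transporter genes, Slc6a20a, a proline carrier, was lower (log2 fold change -1.58, SE 0.31, adjusted p = 0.0151) and Slc1a1, a glutamate and aspartate carrier, was higher (log2 fold change 0.77, SE 0.18, adjusted p = 0.0366). In the list of ATF4 and the amino acid response, 3 of 27 genes were higher and 1 was lower. Sesn2 and Ddit4 both restrain the growth kinase mTORC1 and also respond to stresses other than amino acid loss. Sesn2 had 10.4, 7.29, 6.73 and 5.91 CPM in Yap1WT 1 to 4 and 28.7, 16.5, 30.1 and 29.5 CPM in Yap1KO 1 to 4. Ddit4 had 116, 117, 78.5 and 66.5 CPM in Yap1WT 1 to 4 and 262, 272, 251 and 214 CPM in Yap1KO 1 to 4. In both genes every Yap1KO library was above every Yap1WT library. Their log2 fold changes were 1.79 (SE 0.24, adjusted p = 0.00213) and 1.40 (SE 0.19, adjusted p = 0.00188). Nupr1, a stress response gene, had one of 0.73 (adjusted p = 0.0477), and Stc2, a secreted glycoprotein gene, one of -2.51 (adjusted p = 0.000954). Asns, the target of ATF4 with the motif shown above, was not called, and the list's median was 0.23.

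Several of the calls in these lists were lost when 1 library was left out, for most of these genes with more than 1 choice of library. Suox, Ethe1, Mpst, Tst, Gclc, Aldh1l1, Slc6a20a, Sesn2, Ddit4 and Stc2 kept theirs when any library was left out. Smox lost its call without Yap1WT 3 (adjusted p = 0.0513). Slc25a32 lost it without any library but Yap1KO 1, Hibch without any but Yap1KO 2 and Nupr1 without any but Yap1WT 2, with adjusted p up to 0.128, 0.113 and 0.105. Sqor kept its call only without Yap1WT 2 or Yap1KO 2, and Slc1a1 only without Yap1KO 1 or Yap1KO 4, with adjusted p up to 0.1195 and 0.0976. Aldh4a1 kept it without Yap1WT 1, Yap1KO 2 or Yap1KO 3 and had an adjusted p of up to 0.104 otherwise. The direction was the same in each of these runs.

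**Figure D5:**
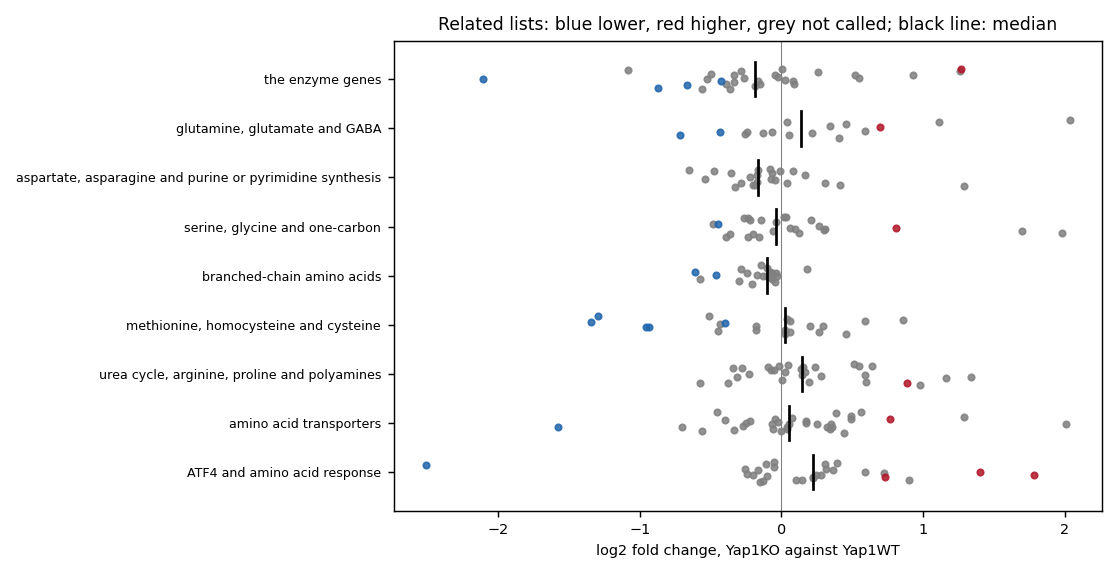
Log2 fold change (x axis, Yap1KO against Yap1WT) of the tested genes of amino acid metabolism, with the 31-gene set in the top line and 8 related lists below it, 1 point per gene, blue for lower, red for higher, grey for not called and a black line at each median. The 5 blue points of the methionine, homocysteine and cysteine list lie between -1.34 and -0.40, and the branched-chain genes crowd just left of 0.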

How the data were processed

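Per the labels and the study's methods, RNA of EpCAM+ cells was made into unstranded TruSeq libraries and sequenced in pairs. The authors aligned the reads to GRCm38/mm10 and deposited whole-number counts per gene (featureCounts with RefSeq annotation). Per the file headers and methods, the authors also deposited log2 RPKM values per library after voom with quantile normalization. They name these log2 FPKM in the file titles. The count table has 6 further columns of values that match no sample label and were not used.

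In the counts, 1277 entries without a gene symbol (0.552% to 0.789% of a library) and 762 pseudogenes were left out of the tests. Genes above 0.5 CPM in at least 6 of 8 libraries were tested in R 4.3.3 by the quasi-likelihood F test of edgeR 4.0.16 after TMM scaling, and p-values were adjusted by Benjamini and Hochberg's method over all 13495 tested genes (threshold 0.05). Standard errors were taken from the fitted log2 fold change. CPM are TMM-normalized. Exact two-sided permutation tests of 4 against 4 libraries cannot go below p = 0.0286. Alternatives used limma 3.58.1, DESeq2 1.42.0, RLE and upper quartile factors, other filters, the deposited log2 values, a replicate block, terms for mouse number range and sex, and each library left out in turn. For genes outside the set they were added after the calls were seen. On simulated counts (13269 genes), edgeR recovered 13.6% of 1.5-fold, 59.4% of 2-fold and 85% of 4-fold changes with 8 false calls. DESeq2 recovered 36.4%, 67.2% and 91.7% with 39 false calls.

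The genes, lists and named items were chosen with earlier results of these data known. The rule for named genes was to account for all 31, to give those with an unadjusted p under 0.05 per library, and to name up to 4 called genes per direction of each related list with the smallest p (Sqor, the fifth in its list, was named after its values were seen), or the 2 most abundant where none was called. Some called genes of the related lists are counted but not reported here by name. Gene positions and sequences come from RefSeq on GRCm38.p6. Protein sequences were not used here. Figures were drawn with matplotlib 3.10.9. Each library is 1 mouse, so the tests take the mouse as the unit of replication.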

Additional observations from a re-analysis of the deposited data

Results flagged for a closer look

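Each of the 62 groups of 4 libraries (31 genes in Yap1WT and in Yap1KO) was examined for a single library far from the other 3 by Dixon's test at the 95% level, which marks about 1 group in 20 by chance, and 5 groups were marked. Gpt2 was 61.9 CPM in Yap1WT 3 and 45.8 to 47.8 CPM in the other Yap1WT libraries. Gls2 was 1.89 CPM in Yap1KO 2 and 1.41 to 1.45 CPM in the others of its group. Ass1 was 0.492 CPM in Yap1WT 3, below 1.19 to 1.22 CPM in the other Yap1WT libraries. Phgdh was 10.2 CPM in Yap1KO 3 and 1.89 to 3.16 CPM in the other Yap1KO libraries. Arg2 was 2.70 CPM in Yap1WT 2 and 0.477 to 0.788 CPM in the other Yap1WT libraries. Among these 5 genes only Gpt2 was called, and its call was lost without Yap1WT 3. As that library was the highest of its group, leaving it out could not make the Gpt2 groups overlap.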

How the results depend on the processing

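Over all genes, DESeq2 called 569 lower and 845 higher (316 and 476 as reported), and 18 related genes higher (7 as reported). In the simulation DESeq2 made 39 false calls and edgeR 8. Leaving out 1 library gave 156 to 292 genes lower, 241 to 481 higher, 2 to 4 of the 31 lower, 0 to 1 higher, and 7 to 10 related genes lower and 3 to 9 higher. Of the 31, limma-voom called 5 lower and DESeq2 6. Log2 fold changes near 0 changed sign, with no call on either side. That of Aldh5a1 was 0.019 with the sex term, and that of Shmt1 was 0.0042 with limma-voom. That of Shmt2 was -0.000616 with DESeq2, -0.000241 with RLE factors, -0.000341 with the filter at 4 libraries, -0.0027 on the deposited log2 values and -0.000122 with the mouse number term. Leaving out 1 library gave -0.066 to 0.041 for Aldh5a1, -0.048 to 0.091 for Asl, -0.019 to 0.18 for Asns, -0.012 to 0.24 for Cad, -0.15 to 0.018 for Shmt1 and -0.21 to 0.094 for Shmt2. The cause was not tested.

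The titles number the libraries 1 to 4 in both groups. The deviations of same-numbered libraries correlated at 0.036, 0.347, 0.0517 and 0.148, and those of libraries with unlike numbers at -0.241 to 0.199. These values do not settle whether same-numbered libraries are pairs, and the reported test did not use the numbers. With them as a replicate block, edgeR called 552 genes lower and 755 higher, 5 of the 31 lower (Gpt joined at adjusted p = 0.0247) and 1 higher, 13 related genes higher, and Shmt2 had a log2 fold change of -0.013.

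Ass1, Abat, Gls2, Cbs and Arg2 had the lowest levels of the 31, and whether depth or the spread between mice limited their tests was not tested. In the simulation edgeR missed most 1.5-fold changes, so genes not called may still differ.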
